A study of Mus musculus with 2 samples.

Results

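The immunoglobulin constant genes and J chain were described here as 9 genes taken by their symbol from the gene table of both libraries: *Ighm*, *Ighd*, *Ighg1*, *Ighg2b*, *Ighg2c*, *Ighg3* and *Igha* (heavy chain constant genes), *Igkc* (kappa light chain constant gene) and *Jchain* (J chain). All 9 were present among the 33696 genes of each library. The series held 2 scRNA-seq libraries of live CD45+ cells sorted from thalami of C57B6/J mice that had undergone cortical ablation injury (CAI), 1 from mice given control Ab (normal rat IgG) and 1 from mice given anti-CD9 Ab (clone KMC8). The antibodies were injected into the thalamus through a cannula from day 7 to day 19 after CAI at 1.0 μg/μl, and cells were collected on day 21, when both groups carried the same injury. Mice were 12 weeks old. The study's methods name females for most experiments and do not state the sex of these pools. Cells of 4 mice were pooled for a thalamic library in the methods, where the number is not repeated for the antibody groups. Since each antibody had a single library, the comparisons carry no test: all intervals are 95% intervals that cover counting error only, and differences between antibody, pool of mice and library cannot be told apart.

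Each antibody is built from heavy and light chains. The constant region of the heavy chain sets the isotype, and class switch recombination joins the rearranged variable region of a B cell to another constant gene, so that a switched cell and its progeny transcribe mainly 1 isotype. Naive B cells carry IgM and IgD from 1 alternatively spliced transcript, plasma cells secrete antibody in bulk, and J chain links the units of polymeric IgM and IgA. Plasma cells are rare in healthy brain tissue and gather in its coverings and at sites of chronic inflammation. The injected antibodies were rat proteins, which RNA counts do not measure.

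The hinge exons are shown because they set the IgG subclasses apart. The counts rest on the 3′ ends of the transcripts, compared below, and not on these exons. They are exon 2 of 4 of the secreted transcripts, on the minus strand of chromosome 12, taken from GENCODE M21 (GRCm38), and are written 5′ to 3′ with the in-frame cysteine codons, which can form the bridges between the heavy chains, in capitals.
Ighg1 hinge (chr12:113329844-113329882): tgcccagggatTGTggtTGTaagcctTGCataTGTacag
Ighg2b hinge (chr12:113307261-113307326): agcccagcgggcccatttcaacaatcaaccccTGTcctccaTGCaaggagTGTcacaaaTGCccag
Ighg2c hinge (chr12:113288263-113288325): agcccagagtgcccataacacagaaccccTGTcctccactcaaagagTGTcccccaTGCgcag
Ighg3 hinge (chr12:113360529-113360576): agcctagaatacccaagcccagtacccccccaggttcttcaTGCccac
The exons of 39, 66, 63 and 48 bases held 4, 4, 3 and 1 cysteine codons, respectively. In the last coding exon of the secreted form, the IgG genes were 64.8% (*Ighg2c* and *Ighg3*) to 76.4% (*Ighg2b* and *Ighg2c*) identical over 318 bases. In the last 500 bases of these transcripts, where reads of a 3′ library fall, 0 of 451 windows of 50 bases of each of *Ighg1*, *Ighg2b*, *Ighg2c*, *Ighg3*, *Igha* and *Ighm* were found in the transcripts of another heavy chain constant gene.

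The second set shows the last 20 codons of the secreted chains, again on the minus strand of chromosome 12 of GRCm38, with cysteine codons in capitals. The alpha and mu chains end in a tailpiece with a cysteine codon next to last, the place where J chain is known to be bound, and the gamma chains have no such codon there.
Igha end (chr12:113258771-113258830): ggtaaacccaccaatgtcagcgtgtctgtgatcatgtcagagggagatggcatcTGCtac
Ighm end (chr12:113420870-113420929): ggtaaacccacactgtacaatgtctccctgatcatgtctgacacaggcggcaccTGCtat
Ighg1 end (chr12:113328979-113329038): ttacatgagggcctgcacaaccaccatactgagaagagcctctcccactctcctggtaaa

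Of 12245 and 15173 barcodes, 7467 (control Ab) and 9162 (anti-CD9 Ab) passed the study's limits of 200 to 7500 genes and no more than 2% mitochondrial counts, with medians of 1880 and 1419 UMIs per cell. Cells were clustered without any immunoglobulin gene, so that none was placed by the genes compared. Of 23 clusters, 1 was plasma cell-like, with all 10 of its markers (*Xbp1*, *Mzb1*, *Sdc1* and others, no immunoglobulin gene among them) raised, and 1 was B cell-like, also with 10 of 10 (*Cd79a*, *Ms4a1*, *Pax5* and others). Background here is a label for the 7 named classes not expected to transcribe these genes, among them T cell-like, microglia-like and neutrophil-like cells. Whether any of these classes transcribes a member was not tested. Microglia-like means 1 cluster (1165 and 613 cells) with *Siglech* and *P2ry12* among its leading genes. A cluster with *Lpl*, *Spp1* and *Cst7* among its leading genes (794 and 227 cells) stayed unnamed and is not part of it. Of the barcodes, 54 occurred in both libraries, 18 of them among the kept cells of both.

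Plasma cell-like cells were 146 after control Ab (1.955% of kept cells, 1.65 to 2.30%) and 143 after anti-CD9 Ab (1.56%, 1.32 to 1.84%), at medians of 9586.5 and 10544 UMIs per cell. They held 94.0% and 90.9% of all UMIs of the 9 genes in the kept cells. Immunoglobulin genes made up 60.3% and 54.0% of their UMIs. A doublet caller marked 28.8% of them after control Ab and 4.196% after anti-CD9 Ab. Apart from shares of cells and of leading isotypes, the values of plasma cell-like cells are given below only with the marked cells included. This holds for the CPM, the gene lists, the *Jchain* counts and the cell cycle markers. B cell-like cells were 28 (0.375%, 0.249 to 0.542%) and 92 (1.00%, 0.810 to 1.23%). Their number depended on the limit on mitochondrial counts, and at 5% they were 108 (0.924% of kept cells) and 699 (4.84%).

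Over all kept cells, the heavy chain constant genes differed in opposite directions while the sum of the 9 genes was nearly level (36199 and 37046 CPM, UMIs scaled to a common library total). *Ighg1* went from 4563 UMIs (183 CPM) after control Ab to 44761 UMIs (1975 CPM) after anti-CD9 Ab, a log2 ratio, taken as anti-CD9 over control, of 3.43 (3.39 to 3.48), or 10.8-fold. *Ighg3* went from 2937 to 5657 UMIs (log2 ratio 1.08) and *Ighd* from 93 to 143 UMIs (0.76). Lower CPM after anti-CD9 Ab was seen for *Ighg2b* (39101 and 20916 UMIs, log2 ratio −0.76), *Ighg2c* (17342 and 10612 UMIs, −0.57), *Jchain* (57396 and 42363 UMIs, −0.30) and *Igha* (54025 and 40984 UMIs, −0.26). *Ighm* (−0.07) and *Igkc* (708392 and 657774 UMIs, 0.03) differed little. Thus 2 of the 9 genes were past a log2 ratio of 1 upwards and 0 downwards, where 7.35% and 21.5% of the 15136 genes tested (50 or more UMIs in the libraries combined) were past it. The median log2 ratio was −0.07 over the 9 genes and −0.37 over all genes tested. UMIs of 1 cell are not independent, and the 10 cells with the most *Ighg1* held 99.5% of its UMIs after control Ab and 35.8% after anti-CD9 Ab, so these intervals are too narrow. *Ighe*, the constant gene of IgE, had 1 and 0 UMIs.

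**Figure D1:**
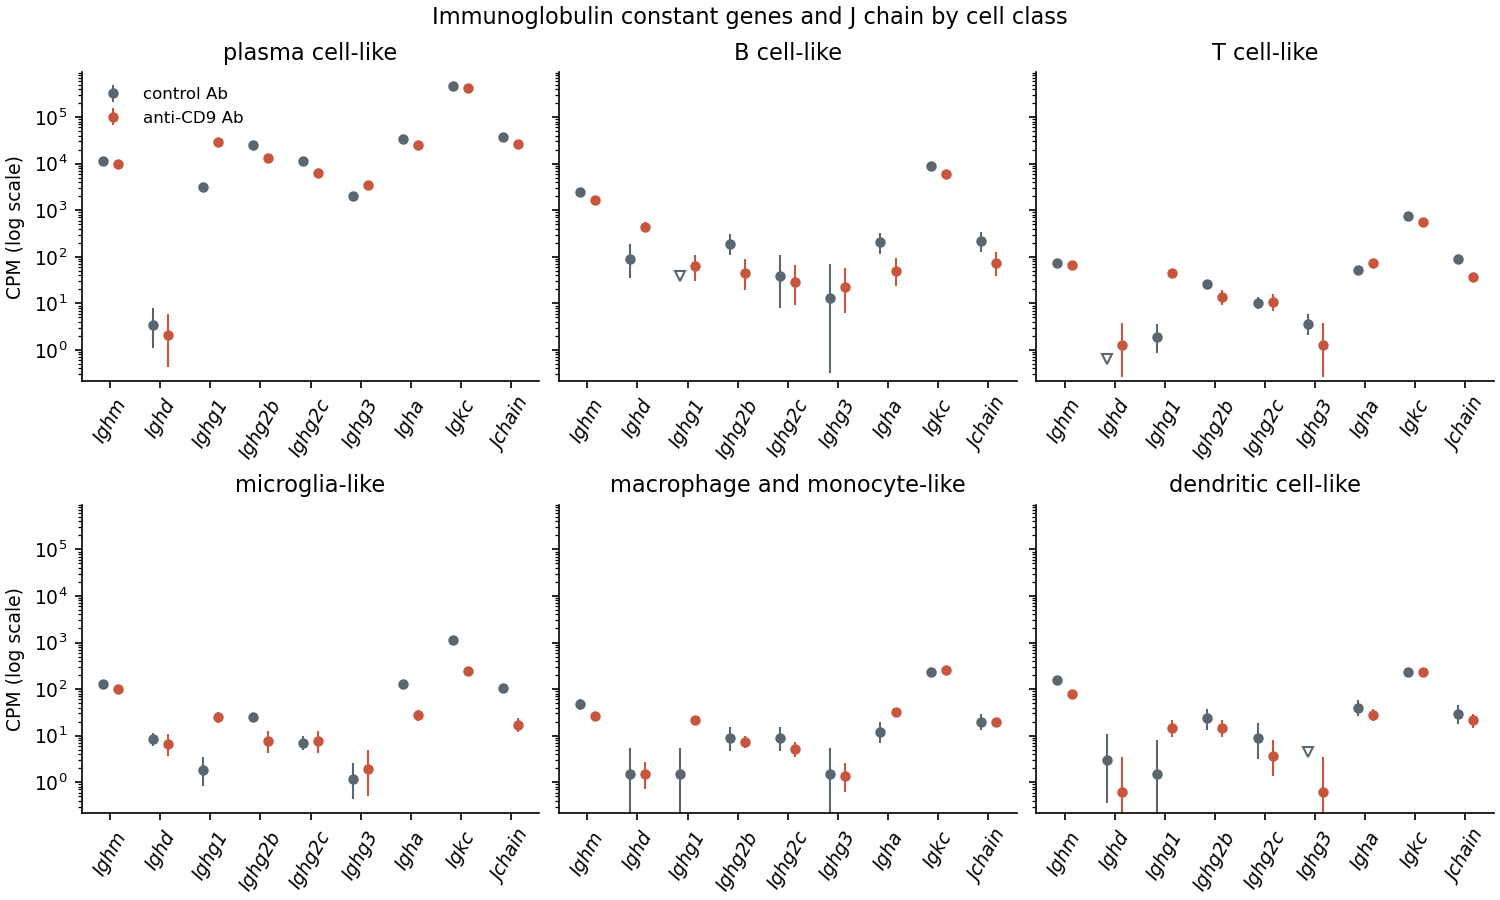
Level in CPM (log scale) of the 9 genes in 6 cell classes of the control Ab (grey) and anti-CD9 Ab (red) libraries; bars are exact Poisson 95% intervals and open triangles mark 3 UMIs where none was counted. *Ighg1* is the gene whose libraries lie furthest apart in plasma cell-like cells (3110 and 28638 CPM), and it stands apart the same way in the T cell-like, microglia-like and macrophage and monocyte-like classes.

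In plasma cell-like cells, the isotype was read from each cell: a cell was led by an isotype when it held at least 20 heavy chain constant UMIs and at least 80% of them were of that isotype, with *Ighm* and *Ighd* counted as IgM. Nearly every cell had a clear leader, 143 of 146 after control Ab and 135 of 143 after anti-CD9 Ab. The leading isotype took a median of 99.9% and 99.7% of a cell's heavy chain UMIs. The cells nearest to the limit had 62.4% and 88.9% (control Ab) and 76.4% and 87.4% (anti-CD9 Ab).

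IgG1 was the isotype that differed most between the libraries. It led 5 cells after control Ab (3.50%, 1.14 to 7.97%) and 46 after anti-CD9 Ab (34.1%, 26.1 to 42.7%), a difference of 30.6 percentage points (21.9 to 39.1). With control Ab it was thus among the rare isotypes. After anti-CD9 Ab it was the most frequent in the main clustering, although its interval there overlapped that of IgA. This rank depended on the processing. IgA led more cells than IgG1 at the 5% mitochondrial limit (52 and 42 of 147) and by marker UMIs without clusters (40 and 33 of 113). Each led 38 of 114 cells with 20 PCs and with immunoglobulin genes in the clustering. The 46 cells led by IgG1 held a median of 923.5 heavy chain UMIs each, from 20 to 2092. Leaving out marked doublets gave 3.92% and 34.9%. The intervals of the isotype shares and of their differences take cells as independent. Cells of a clone can share an isotype, and clones were not called, so these intervals can be too narrow.

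IgA led 54 cells (37.8%, 29.8 to 46.2%) and 43 cells (31.9%, 24.1 to 40.4%), and the difference of −5.91 points (−16.8 to 5.27) did not exceed counting error. It was the most frequent isotype after control Ab. IgG2b led 34 cells (23.8%, 17.1 to 31.6%) and 18 cells (13.3%, 8.10 to 20.3%), a difference of −10.4 points (−19.4 to −1.25). IgM led 24 cells (16.8%) and 11 cells (8.15%), a difference of −8.64 points (−16.5 to −0.78). These shares have a total that holds the IgG1 cells, so they are lower wherever the IgG1 share is higher. Among cells not led by IgG1 (138 and 89), IgG2b led 24.6% and 20.2%, a difference of −4.41 points (−14.9 to 7.06), and IgM 17.4% and 12.4%, a difference of −5.03 points (−14.0 to 4.99). IgA led 39.1% and 48.3% of them, a difference of 9.18 points (−3.91 to 22.0). None of the 3 differences exceeded counting error there. The IgM difference over all cells also took in 0 at the 5% mitochondrial limit (−6.78 points, −14.5 to 1.24). IgG2c, the form of IgG2 that C57BL/6 mice carry in place of IgG2a, led 23 cells (16.1%) and 12 cells (8.89%), a difference of −7.20 points (−15.0 to 0.70). Of the 23 cells, 11 were marked as doublets, and without marked cells IgG2c led 11.8% and 8.53%, a difference of −3.24 points (−11.8 to 4.59). IgG3 led 3 and 5 cells. The 4 IgG subclasses together, IgG1 included, led 65 cells (45.5%, 37.1 to 54.0%) and 81 of 135 cells (51.2 to 68.3%). The difference was 14.5 points (2.80 to 25.7). This sum was taken in the main clustering only and was not followed under the alternatives, so its interval is not read further. The IgG1 difference within it was smaller at the 5% mitochondrial limit (25.6 points) and by marker UMIs without clusters (24.5 points). With control Ab the order was IgA, IgG2b, IgM, IgG2c, IgG1, IgG3, and the intervals of IgA and IgG2b, of IgG2b, IgM and IgG2c, and of IgG1 and IgG3 overlapped. With anti-CD9 Ab it was IgG1, IgA, IgG2b, IgG2c, IgM, IgG3, with overlap of IgG1 and IgA and of all isotypes from IgG2b to IgG3.

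**Figure D2:**
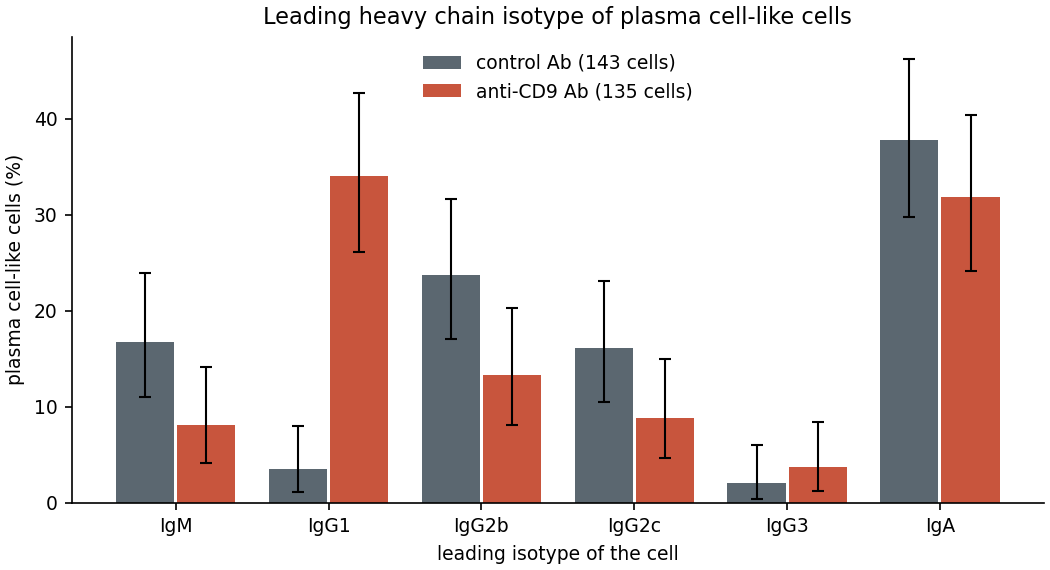
Share of plasma cell-like cells led by each isotype (vertical axis, % of cells with a leading isotype) with exact binomial 95% intervals, for 143 cells after control Ab (grey) and 135 after anti-CD9 Ab (red). IgG1 is the second lowest after control Ab (3.50%) and the highest after anti-CD9 Ab (34.1%), while the intervals of IgA overlap.

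Counting UMIs in place of cells, *Igha* came first after control Ab and *Ighg1* after anti-CD9 Ab, as they did by cells, while IgM and IgG2c changed places in both libraries. Of the heavy chain UMIs in plasma cell-like cells (126285 and 125236), *Ighg1* made up 3.59% and 33.2%, *Ighg2b* 28.9% and 15.4%, *Igha* 38.8% and 28.9%, *Ighg2c* 13.3% and 7.25%, *Ighg3* 2.29% and 4.12%, and *Ighm* with *Ighd* 13.2% and 11.2%. In CPM of these cells, *Ighg1* had a log2 ratio of 3.20 (3110 and 28638 CPM) and was the 1 gene of the 8 members with at least 50 UMIs that was past a log2 ratio of 1. Of 4290 genes tested in this class, 4.9% were past it upwards and 3.94% downwards. *Ighg2b* (−0.92) and *Ighg2c* (−0.88) lay just inside it, and over UMIs of genes other than immunoglobulin genes they were at −1.13 and −1.09. That scale changes all members by the same step, since immunoglobulin UMIs took a smaller part of the cells after anti-CD9 Ab. *Ighd* was near absent from plasma cell-like cells (5 and 3 UMIs).

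Light chains were kappa in almost all plasma cell-like cells. *Igkc* had a median of 4292 UMIs per cell after control Ab (0 to 11574) and 4096 after anti-CD9 Ab (1 to 13549), the highest of the 9 genes. Lambda constant UMIs (*Iglc1*, *Iglc2* and *Iglc3*, whose sequences were not compared here) outnumbered *Igkc* in 6 cells (4.11%, 1.52 to 8.73%) and 3 cells (2.10%, 0.435 to 6.01%). The CPM of *Iglc1* had a log2 ratio of −1.16 here, but 1 cell held 8295 of its 9876 UMIs after anti-CD9 Ab and 1 held 5885 of 22106 after control Ab. There were 5.30 *Igkc* UMIs per heavy chain UMI after control Ab and 4.79 after anti-CD9 Ab, and cells led by each of the isotypes had between 3.70 (IgG3 after anti-CD9 Ab) and 6.67 (IgG3 after control Ab). These extremes rest on 5 and 3 cells, and 1 of the 5 held 66 *Igkc* and 2378 heavy chain UMIs, so no difference is read from them.

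Heavy chain variable genes, which lie far from the 3′ end of the transcript, were sparsely counted, with medians of 2 and 3 UMIs per plasma cell-like cell. Light chain variable genes had medians of 17 and 31. The heavy chain variable genes with the most UMIs were *Ighv3-6*, *Ighv1-22* and *Ighv1-76* after control Ab (54, 24 and 24 of 353 UMIs) and *Ighv1-9*, *Ighv5-16* and *Ighv6-3* after anti-CD9 Ab (236, 87 and 74 of 771 UMIs). These are 3 of the 48 and 47 heavy chain variable genes detected, and *Ighv3-6* had at most 8 UMIs in a cell after control Ab. No difference between the libraries is read from the 2 sets. *Ighv1-9* was seen in 12 cells, 6 of them with 10 or more of its UMIs. Among light chain variable genes, *Iglv1* held 58.3% of 4046 UMIs and 76.4% of 8082. Most *Iglv1* UMIs (2140 of 2360, and 6107 of 6176) lay in cells in which *Igkc* outnumbered the lambda constant genes. The next were *Igkv3-7* (294 UMIs) and *Iglv3* (169) after control Ab, and *Igkv12-44* (342) and *Iglv3* (279) after anti-CD9 Ab. With so few heavy chain variable UMIs per cell, clones were not called.

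*Jchain*, which encodes the chain that joins polymeric IgM and IgA, went with the isotype of the cell in both libraries. In cells led by IgA, whose tailpiece is printed above, the median was 649 UMIs per cell after control Ab (139 to 1414) and 418 after anti-CD9 Ab (36 to 1093). In cells led by an IgG subclass it was 151 (1 to 661) and 142 (12 to 444). The ranges overlapped, but the median in IgA cells was higher than in each IgG subclass in both libraries. Cells led by IgM had a median of 168.5 after control Ab (0 to 909) and 487 after anti-CD9 Ab (173 to 754), with all 11 of the latter at 173 or more.

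Set against heavy chain UMIs, *Jchain* gave 74.1 UMIs per 100 in IgA cells after control Ab and 57.3 after anti-CD9 Ab. In IgM cells there were 39.2 and 36.9, and in IgG cells 18.2 and 16.3. The order IgA, IgM, IgG was thus the same in both libraries on this scale. Among the subclasses, the medians of *Jchain* UMIs per cell after control Ab were 151 (IgG1), 135.5 (IgG2b), 182 (IgG2c) and 113 (IgG3). With anti-CD9 Ab they were 147.5, 128.5, 96 and 300, the last from 5 cells. J chain transcripts were found in 98.6% and 97.9% of plasma cell-like cells, IgG cells among them. Summed over the class, *Jchain* had 36610 and 26541 CPM (log2 ratio −0.46).

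**Figure D3:**
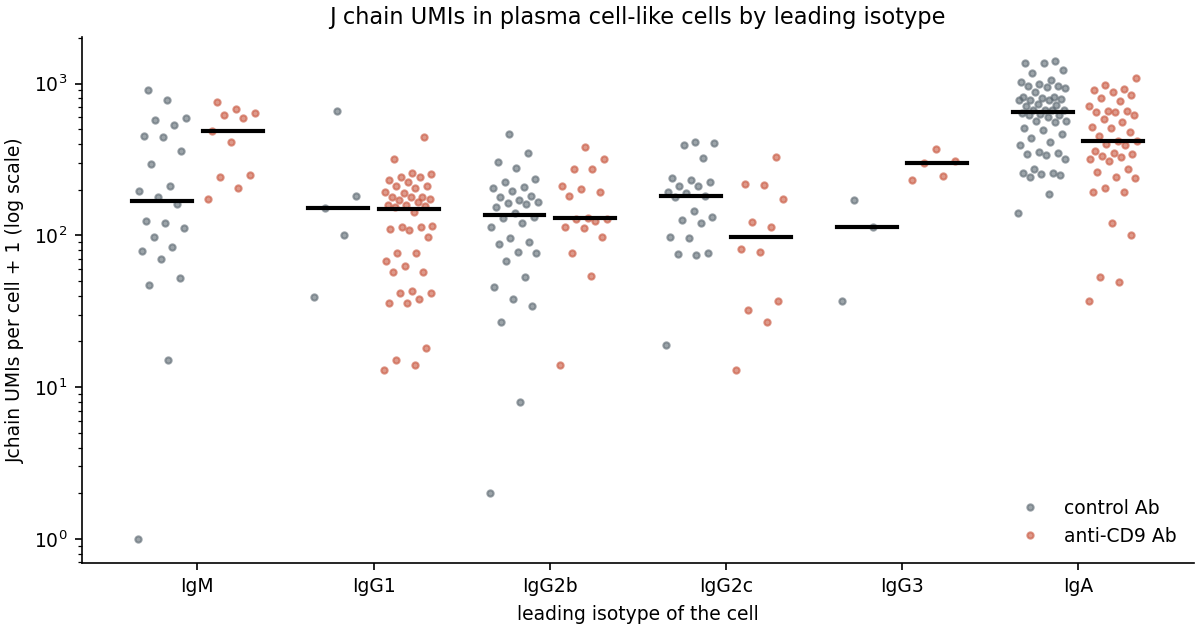
*Jchain* UMIs per plasma cell-like cell plus 1 (log scale) by leading isotype; each point is a cell of the control Ab (grey) or anti-CD9 Ab (red) library, and lines are medians. IgA cells lie highest in control Ab (median 649), with the IgG subclasses between medians of 96 and 300 over both libraries.

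Secretory and plasma cell genes were given as a list of 20, which also holds surface receptors and transcription factors. In plasma cell-like cells all 20 had at least 50 UMIs, 1 was past a log2 ratio of 1 upwards (*Fkbp11*, 1.07) and 1 downwards (*Cd28*, −1.60), shares near the 4.9% and 3.94% of all genes. *Fkbp11* was inside the fold over UMIs of genes other than immunoglobulin genes (0.86). The median of the list was 0.35, against 0.18 over all genes tested. *Xbp1*, the transcription factor of the secretory programme, had 1006 and 1327 CPM, and *Mzb1*, a helper of immunoglobulin folding, 3821 and 5068 CPM. *Sdc1* (CD138) had 72.0 and 69.5 CPM, *Prdm1*, which encodes the plasma cell regulator Blimp-1, 54.8 and 74.4, and *Tnfrsf17*, the receptor BCMA, 58.3 and 35.1. Of 18 B lineage genes, 9 had enough UMIs in this class, 0 were past the fold upwards and 1 downwards (*H2-Ob*, −1.37), with a median of −0.33. Over UMIs of genes other than immunoglobulin genes, *Cd79a* (−1.18) and *Fcrla* (−1.21) were also past it downwards, beside *H2-Ob* (−1.59). The share of all genes was not taken on that scale. *Cd79a*, a signalling chain of the B cell receptor, had 759 and 389 CPM, and *Ms4a1* (CD20) 55.5 and 44.1. *Cd9*, the target of the injected antibody, had 159 and 134 CPM. Genes of the cell cycle differed more: at least 2 of 5 markers (*Mki67*, *Top2a*, *Cenpe*, *Diaph3*, *Cdk1*) were seen, after thinning to 2000 UMIs of other genes, in 3 of 126 cells after control Ab (2.38%, 0.494 to 6.80%) and 19 of 125 after anti-CD9 Ab (15.2%, 9.41 to 22.7%). Without thinning they were 6 of 146 and 27 of 143. The 19 were 7 of 39 cells led by IgG1 (17.9%), 5 of 11 by IgG2c (45.5%) and 4 of 40 by IgA (10.0%). The rest were 2 of 16 led by IgG2b and 1 of 5 by IgG3, with 0 of 11 by IgM.

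In B cell-like cells the members stood at another level and in another order. *Igkc* led with a median of 13.5 UMIs per cell after control Ab (2 to 256) and 9.5 after anti-CD9 Ab (0 to 53). *Ighm* followed with medians of 2 (0 to 95) and 3 (0 to 20). Together with *Ighd* it made up 85.1% of the heavy chain UMIs after control Ab and 90.9% after anti-CD9 Ab, against 13.2% and 11.2% in plasma cell-like cells. The summed level of the 9 genes (11978 and 8273 CPM) turned its direction under other clusterings, and 1 cell held 95 of the 193 *Ighm* UMIs after control Ab, so no difference is read from it.

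*Ighd*, which marks mature naive B cells, was the 1 member tested in this class that lay past a log2 ratio of 1. It had 7 UMIs in 28 cells after control Ab (89.3 CPM, 35.9 to 184) and 79 UMIs in 92 cells after anti-CD9 Ab (446 CPM, 353 to 556), and the log2 ratio was 2.32 (1.20 to 3.43). With cells thinned to 1000 UMIs, 3 of 26 (11.5%, 2.45 to 30.2%) and 27 of 79 cells (34.2%, 23.9 to 45.7%) had an *Ighd* UMI, and these intervals overlapped. Thinning is a random draw, and a second draw gave 3 of 26 and 24 of 79. Unthinned shares were 25.0% and 55.4% at medians of 2833.5 and 1653.5 UMIs, and the thinned share in the background classes was 0.115% and 0.143%. With the limit on mitochondrial counts at 5%, which kept 108 and 699 cells, *Ighd* had 110 and 515 CPM, and the thinned shares were 13.2% (7.0 to 21.9%) and 40.7% (36.9 to 44.6%). Of the members, 3 (*Ighm*, *Ighd* and *Igkc*) had at least 50 UMIs in this class, of which *Ighd* was past a log2 ratio of 1 upwards and 0 downwards. Of 845 genes tested, 11.5% and 5.33% were past it.

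Switched isotypes were the smaller part of the heavy chain UMIs in B cell-like cells, with 35 of 235 after control Ab and 37 of 407 after anti-CD9 Ab. At the 5% mitochondrial limit they had 187 and 378 UMIs, beside 672 and 2756 of *Ighm*. *Ighg1* had 0 UMIs in 28 cells after control Ab, where 3 UMIs would be 38.3 CPM, and 11 UMIs in 92 cells after anti-CD9 Ab (62.1 CPM, 31.0 to 111). At least 5 UMIs of a single switched gene were held by 1 and 0 cells, and at the 5% limit by 9 of 108 and 12 of 699. *Jchain* had 17 and 13 UMIs. After thinning, 7.59% of these cells after anti-CD9 Ab had an *Ighg1* UMI (2.84 to 15.8%), and 3.31% of background cells did. Of the 18 B lineage genes, 11 were tested in this class and 1 (*Fcmr*, the Fc receptor for IgM, 1.28) was past the fold upwards and 0 downwards, near the shares over all genes just given, with a median of 0.29 and of 0.10 over all genes. Counts over genes add 0.5 UMI to each library, which left *Pax5* (1.03 without the addition) just inside the fold. *Cd79a* had 1072 and 1315 CPM and *Ms4a1* 676 and 632. Of the 20 secretory and plasma cell genes, 3 were tested and 1 was past it downwards (*Sec11c*, −1.26), with a median of −0.92.

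A further cluster, unnamed, held 29 barcodes after control Ab and 1184 after anti-CD9 Ab, at a median of 764 UMIs, with *Ttr*, *Cxcl13*, *Slpi* and *Mzb1* among its leading genes and 35.9% of the latter marked as doublets. It held 0.453% and 7.38% of the member UMIs. At least 20 member UMIs were found in 281 of its barcodes after anti-CD9 Ab, of which 56 had UMIs of at least 3 plasma cell markers and 126 had a leading isotype. IgA led 39 of them, IgG1 33, IgG2c 18, IgG2b 13, IgM 12 and IgG3 11. With control Ab there were 5 such barcodes, of which IgA led 4 and IgG2b 1. Counting them with the plasma cell-like cells left IgG1 at 3.38% after control Ab and 30.3% after anti-CD9 Ab, where IgA led 31.4%.

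Members were counted in other cells too, and *Ighg1* there was higher after anti-CD9 Ab, the same direction as in plasma cell-like cells. In background cells with under 20 member UMIs (5054 and 6024 cells), *Ighg1* had 21 UMIs (1.61 CPM, 0.995 to 2.46) after control Ab and 448 UMIs (27.7 CPM, 25.2 to 30.4) after anti-CD9 Ab, and the log2 ratio was 4.11 (3.48 to 4.74). After thinning to 1000 UMIs, 11 of 4348 cells (0.253%) and 162 of 4901 cells (3.31%) had an *Ighg1* UMI. The unthinned shares were 0.416% and 6.76%, and thinning left out 706 and 1123 shallower cells. *Igkc* was seen in 41.9% and 30.1% of the thinned cells (64.9% and 53.9% unthinned), at 463 and 331 CPM. A UMI of *Igkc* was thus common in cells not expected to transcribe it, and these shares are called background here. The mix of classes in the background differed between the libraries. T cell-like cells were 2776 of the 5054 cells after control Ab and 936 of the 6024 after anti-CD9 Ab. Neutrophil-like cells were 63 and 2685. Differences between the libraries in these pooled values thus also take in the mix of classes. The source of these UMIs was not tested.

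Set against *Igkc*, the members differed in how near the background cells came to the plasma cell-like cells of their library. *Jchain* had 10.6 UMIs per 100 *Igkc* UMIs (9.75 to 11.4) in background cells after control Ab and 8.01 (7.27 to 8.80) after anti-CD9 Ab. Both lay above the 7.99 and 6.43 in plasma cell-like cells. *Ighg1* had 0.347 (0.215 to 0.531) and 8.36 (7.60 to 9.17), beside 0.678 and 6.94. It thus lay below the plasma cell-like value after control Ab and above it after anti-CD9 Ab. *Igha* had 4.91 (4.37 to 5.50) and 10.9 (10.1 to 11.9), beside 7.32 and 6.03, so that it lay below the plasma cell-like value after control Ab and above it after anti-CD9 Ab. *Ighm* had 20.03 (18.9 to 21.2) and 16.9 (15.9 to 18.1), beside 2.48 and 2.33, and 28.1 and 27.8 in B cell-like cells. It made up, with *Ighd*, 64.0% and 40.2% of the heavy chain UMIs of the background cells. All these values pool the background classes, whose mix differed between the libraries.

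The excess of *Ighm* differed between classes in both libraries. Without member-rich cells, there were 45.3 *Ighm* UMIs per 100 *Igkc* UMIs in microglia-like cells after control Ab (41.8 to 49.0) and 40.5 after anti-CD9 Ab (35.0 to 46.5). T cell-like cells had 10.8 (9.71 to 12.0) and 18.0 (15.2 to 21.1), and neutrophil-like cells after anti-CD9 Ab 12.2 (10.8 to 13.8). Dendritic cell-like cells had 72.1 (58.8 to 87.7) and 33.7 (28.05 to 40.1). After thinning, 14.6% of microglia-like cells after control Ab (12.6 to 16.8%) and 10.0% after anti-CD9 Ab (7.76 to 12.7%) had an *Ighm* UMI, beside 6.19% (5.27 to 7.22%) and 5.98% (4.50 to 7.77%) of T cell-like cells. For *Igkc* the order was the other way round, with 33.4% and 21.1% in microglia-like and 47.9% and 29.8% in T cell-like cells. The ratio of *Ighm* to *Igkc* thus differed between microglia-like and T cell-like cells beyond counting error in both libraries. *Ighd* too was seen in microglia-like cells, with 42 and 14 UMIs, and 0 and 3 in T cell-like cells.

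**Figure D4:**
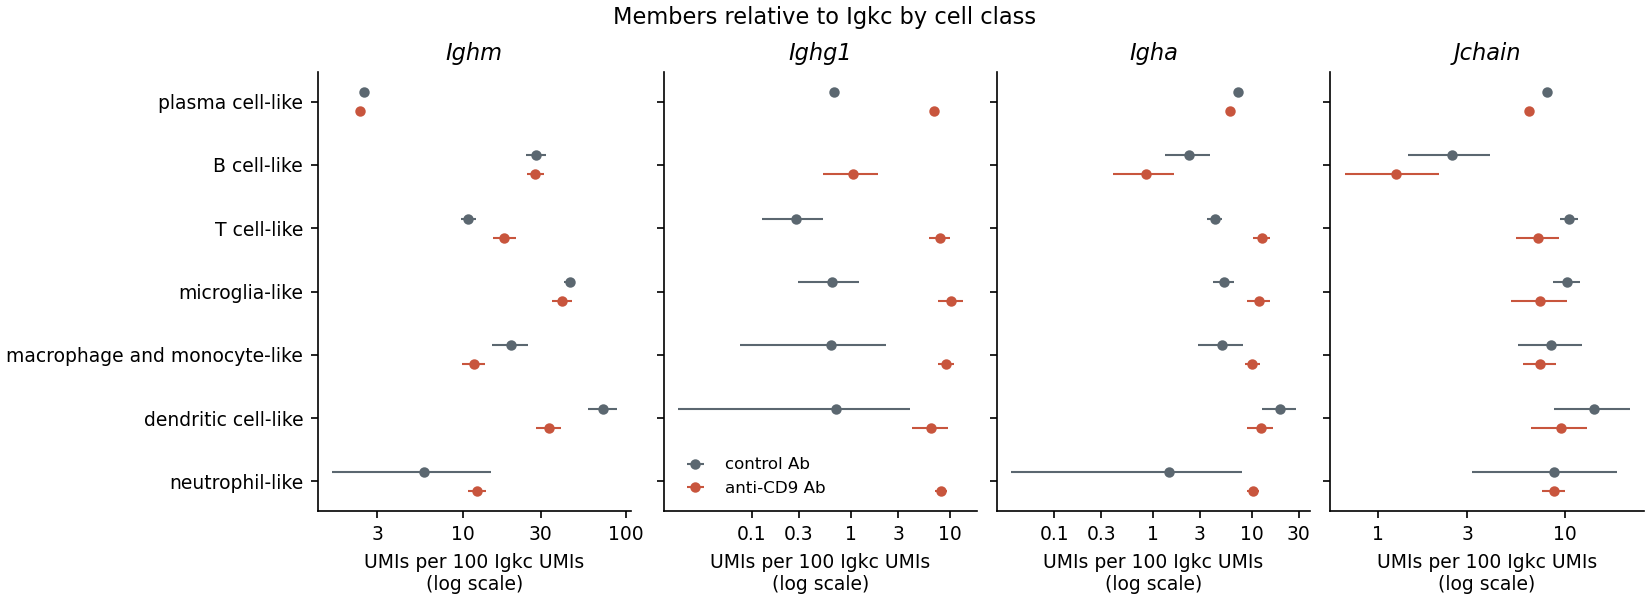
UMIs of *Ighm*, *Ighg1*, *Igha* and *Jchain* per 100 *Igkc* UMIs (log scale) with exact Poisson 95% intervals on the numerator, by cell class, for control Ab (grey) and anti-CD9 Ab (red); the 5 lower classes are without cells with 20 or more member UMIs, and no point is drawn where the count was 0. *Ighm* lies at 2.48 and 2.33 in plasma cell-like and at 45.3 and 40.5 in microglia-like cells, while *Jchain* lies at 7.99 and 6.43 and at 10.2 and 7.36 in the same classes.

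By class, T cell-like cells had 7 members with at least 50 UMIs, of which *Ighg1* (1.91 and 44.6 CPM, and 1.92 and 28.9 CPM without member-rich cells) was past a log2 ratio of 1 upwards and *Jchain* (89.3 and 36.0 CPM, −1.31) downwards. Of 9493 genes tested in this class, 2.8% and 2.09% were past it. In microglia-like cells 8 members were tested, *Ighg1* was past it upwards (1.80 and 24.6 CPM) and *Ighg2b*, *Igha*, *Igkc* and *Jchain* downwards, with 3.36% and 3.33% of 9867 genes past it. The last set rests on 3 cells after control Ab that each held 20 or more member UMIs. Without them and 2 such cells after anti-CD9 Ab, *Igkc* went from 1129 to 281 CPM after control Ab, the log2 ratio of *Igkc* was −0.28, that of *Jchain* −0.75 and that of *Igha* 0.91.

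Receptors for the Fc part of antibodies were given as a list of 8, of which 6 were tested in microglia-like cells, 2 were past a log2 ratio of 1 upwards and 0 downwards, beside 3.36% and 3.33% of all genes, and the median was 0.40, against −0.03 over all genes. In T cell-like cells 4 were tested and 3 were past it upwards (*Fcer1g*, *Fcgr3* and *Fcgr2b*), beside 2.8% of all genes. The median there was 1.03. The levels of these genes were lower there, with 6.81 and 13.9 CPM for *Fcgr2b*, and 10 and 38 UMIs for *Fcgr4*. The source of these UMIs in T cell-like cells was not tested. The 2 genes past it in microglia-like cells were *Fcgr4*, with 55.8 and 280 CPM (2.33), and *Fcgr2b*, the inhibitory receptor, with 220 and 524 CPM (1.25). *Pigr* and *Fcamr*, receptors for polymeric IgA and IgM, had 0 UMIs in microglia-like cells in both libraries. In macrophage and monocyte-like cells *Fcgr2b* had 257 and 630 CPM, and *Fcgrt*, which carries IgG inside cells, 23.0 and 10.4 CPM.

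Over the 9 named classes in each of the 2 libraries (18 points that share 2 libraries), the genes outside the immunoglobulin genes most like *Jchain* in log2(CPM + 1) were *Prg2*, *Fkbp11* and *Ccr10* (Pearson r 0.93, 0.90 and 0.88). For *Igkc* they were *Fkbp11*, *Gm30211* and *Mzb1* (0.95, 0.90 and 0.89), and for *Ighg2b* *Fkbp11*, *Ccr10* and *Prg2* (0.93, 0.90 and 0.87). These values describe the classes and were taken among 10565 genes with at least 200 UMIs.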

How the data were processed

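Per the labels and the study's methods, libraries were made with the 10x Genomics Single Cell 3′ protocol. The deposited matrices hold raw UMI counts per gene and barcode, made by the authors with Cell Ranger 8.0.0 and GRCm39 (file header and submitters' processing notes), while the methods name another version and build. Coordinates and sequences here come from GENCODE M21 (GRCm38), matched by gene symbol and not by position. Cells were kept by the study's limits, integrated by anchors and clustered in R 4.3.3 with Seurat 5.3.0 (2000 variable genes, 30 PCs, resolution 0.8), with 391 immunoglobulin genes (*Jchain* included) left out. A cluster was named when at least 50% and 3 of a type's markers were raised (log2 ratio of 1 or more with 20 CPM added, 10% of cells). It stayed unnamed when a second type had 75% or more of its markers raised, or another type had more markers among the 10 leading genes. Shallow clusters with no marker of their type among those genes also stayed unnamed. These naming limits were set after seeing the data. Cells with the highest doublet scores (scrublet in scanpy 1.11.5) were marked as doublets, at 0.8% per 1000 barcodes, and kept.

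UMIs were summed per class and library and given as CPM over all UMIs. Shares have exact binomial intervals, sums exact Poisson intervals, differences of shares Newcombe intervals, and log2 ratios Wald intervals on log counts. Shares of cells with a UMI were also given after thinning each cell to 1000 UMIs. For the ratio across all genes 0.5 UMI was added. Named genes were the 9 members, *Ighe*, the lambda constant genes, the 3 variable genes per chain with the most UMIs, 7 genes of the B lineage, and 3 genes most like *Jchain*, *Igkc* and *Ighg2b*. Other genes named from the lists were those past the fold. *Cd9*, *Pax5*, cell cycle genes and the *Fcgr* values were chosen after their values were seen. The members and the lists (20 secretory and plasma cell genes, 18 B lineage genes, 8 immunoglobulin receptors) were chosen with earlier results of these data known. Alternatives were another mitochondrial limit, no integration, 20 PCs, immunoglobulin genes in the clustering, marker UMIs without clusters, doublets left out, other limits for a leading isotype, CPM over other UMIs, all barcodes, and leaving out cells rich in members. Shares among cells not led by IgG1 were added after seeing the data.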

Additional observations from a re-analysis of the deposited data

How the results depend on the processing

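The IgG1 difference between the libraries kept its direction over all alternatives that kept these cells. IgG1 led 2.96% to 4.72% of plasma cell-like cells after control Ab and 28.6% to 34.9% after anti-CD9 Ab. Its first rank after anti-CD9 Ab did not hold in all of them. IgA was ahead of IgG1 at the 5% limit (35.4% and 28.6%) and by marker UMIs (35.4% and 29.2%). It was also ahead with member-rich barcodes of the unnamed cluster counted (31.4% and 30.3%). They were level at 33.3% with 20 PCs and with immunoglobulin genes in the clustering. Counting the member-rich barcodes of the unnamed cluster and leaving out IgG1 cells were added after seeing the data, and the latter put IgA at 48.3% after anti-CD9 Ab. The interval of the IgM difference took in 0 at the 5% limit, with 20 PCs, with immunoglobulin genes in the clustering, by marker UMIs, with at least 50 heavy chain UMIs and without IgG1 cells. That of IgG2b did so with 20 PCs, with immunoglobulin genes in the clustering and without IgG1 cells, and that of IgG2c lay below 0 at the 5% limit, with 20 PCs and with immunoglobulin genes in the clustering. The share of plasma cell-like cells was 1.46% (control Ab) and 1.11% (anti-CD9 Ab) and that of B cell-like cells 0.924% and 4.84% at a mitochondrial limit of 5%. By marker UMIs without clusters the control Ab shares were 1.47% and 0.589%, and without predicted doublets the plasma cell-like share was 1.54%. The log2 ratio of the summed members in background cells was −1.39, and became −1.50 (5% limit), −1.64 (no integration), −1.34 (20 PCs), −0.99 (immunoglobulin genes in the clustering), −0.25 (marker UMIs), −1.0 (doublets left out) and −0.40 without cells of 20 or more member UMIs, where *Igha* turned to 0.67. In B cell-like cells the sum was −0.53. It became −0.67 without doublets and −1.615 by marker UMIs, where *Ighm* turned to 1.79 and *Igha* to 4.22. Without integration it turned to 0.13, with *Ighm* at 0.17, *Igha* at 0.63, *Igkc* at 0.071 and *Jchain* at 0.10. With immunoglobulin genes in the clustering it turned to 1.21, with *Ighm* at 1.18, *Igha* at 1.10, *Igkc* at 1.17 and *Jchain* at 2.64. Over all kept cells, *Igha* turned to 0.094 without the 10 cells richest in members. Over all deposited barcodes the sum turned to −0.10, *Ighm* to 0.031 and *Igkc* to −0.11. The cause of these moves was not tested. With genes of at least 10 UMIs, the counts past the fold (higher and lower) were 824 and 819 in plasma cell-like, 679 and 456 in B cell-like, 702 and 689 in T cell-like and 763 and 877 in microglia-like cells, with more genes tested. No paired analysis was possible because each antibody had 1 library. For the same reason no library could be left out.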
